A study of Rattus norvegicus with 12 samples.

Results

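The circadian clock genes described here are 10 genes, Per1, Per2, Per3, Cry1, Cry2, Arntl (also named Bmal1), Clock, Nr1d1, Nr1d2 and Dbp. The rule names them by gene symbol, and each was read by 1 probe set. All 10 of 10 were found among the 14506 genes measured. The levels come from whole-transcript microarrays of primary heart muscle cells of newborn Sprague Dawley rats. The cells were grown with bromodeoxyuridine, which holds back dividing fibroblasts, transfected with a non-silencing siRNA (NS) or with an siRNA against p300 (p300kd), and kept without serum before the experiment. They were then collected at 0 h or after 8 h in 1 µM doxorubicin (Dox), an anthracycline cancer drug that damages DNA and is toxic to the heart. The 4 groups are NS at 0 h, NS at 8 h, p300kd at 0 h and p300kd at 8 h, each with 3 arrays from 3 experiments. All 4 groups therefore share the transfection, the serum-free culture and the strain. The labels describe mixed primary cultures that are mostly, not wholly, myocytes.

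The circadian clock of mammalian cells is a transcriptional feedback loop. CLOCK and BMAL1, the product of Arntl, pair and activate genes that carry E-box sequences, among them the Period (Per) and Cryptochrome (Cry) genes, whose proteins return to inhibit the pair. A further loop runs through the nuclear receptors REV-ERB alpha (Nr1d1) and REV-ERB beta (Nr1d2), which repress Arntl and Clock, and Dbp is an output factor that activates genes through D-box sequences. The heart has such a clock of its own, which governs part of its metabolism and electrical activity. p300, encoded by Ep300, is a histone acetyltransferase that has been described as a coactivator of CLOCK and BMAL1.

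The start regions of 4 members are shown because they hold letters that match elements described for the loop. RefSeq windows of 300 bases, from 250 before to 50 after the annotated start on assembly GRCr8, were given for 9 of the 10 genes, with 11 windows in all. Capitals mark the motif found, and bases are written 5′ to 3′ on the gene's own strand. The Per2 window (chr9:99496944-99497243, minus strand) holds a D-box, TTATGTAA, whose first base lies 192 bases before the start, and an E-prime box, CACGTT, at 62 bases before it. The Cry2 window (chr3:98860388-98860687, minus strand) holds the E-prime box on the opposite strand, written AACGTG, at 212 bases before the start. The downstream Nr1d1 window (chr10:84229405-84229704, minus strand) belongs to the downstream one of a pair of annotated starts and holds the E-box CACGTG at 191 bases before it. The Arntl window (chr1:176766078-176766377, plus strand) holds TAGGTCA, an element bound by REV-ERB and ROR receptors, at 16 bases before the start.
Per2: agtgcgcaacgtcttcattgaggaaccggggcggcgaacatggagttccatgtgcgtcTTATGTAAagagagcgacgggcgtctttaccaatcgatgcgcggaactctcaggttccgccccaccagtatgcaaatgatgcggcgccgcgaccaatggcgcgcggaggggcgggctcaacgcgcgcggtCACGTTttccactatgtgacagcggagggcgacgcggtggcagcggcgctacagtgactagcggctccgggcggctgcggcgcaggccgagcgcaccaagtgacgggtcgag
Cry2: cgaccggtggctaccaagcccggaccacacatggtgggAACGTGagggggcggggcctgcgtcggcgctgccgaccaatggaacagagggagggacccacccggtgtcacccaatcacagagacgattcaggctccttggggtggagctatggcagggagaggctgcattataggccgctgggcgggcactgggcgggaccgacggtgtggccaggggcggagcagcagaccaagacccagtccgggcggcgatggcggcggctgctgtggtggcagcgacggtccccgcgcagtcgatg
Nr1d1: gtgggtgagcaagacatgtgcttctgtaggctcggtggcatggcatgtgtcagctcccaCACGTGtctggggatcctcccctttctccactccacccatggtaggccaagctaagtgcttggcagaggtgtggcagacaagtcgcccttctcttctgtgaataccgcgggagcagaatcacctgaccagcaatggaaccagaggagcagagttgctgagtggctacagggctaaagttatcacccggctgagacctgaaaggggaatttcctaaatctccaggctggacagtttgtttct
Arntl: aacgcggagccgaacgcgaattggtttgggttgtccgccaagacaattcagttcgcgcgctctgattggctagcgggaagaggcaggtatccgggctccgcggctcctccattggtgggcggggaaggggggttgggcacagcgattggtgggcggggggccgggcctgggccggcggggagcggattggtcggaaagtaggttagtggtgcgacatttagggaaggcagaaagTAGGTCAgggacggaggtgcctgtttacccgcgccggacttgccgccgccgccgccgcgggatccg

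Both strands were searched for 5 elements. The E-box CACGTG was in 1 of the 9 members with a window and in 6.42% of all 33469 rat windows of the same length. The E-prime box CACGTT was in 3 members (Per2, Cry2 and the upstream Nr1d1 window, where AACGTG starts 174 bases before the start) and in 4.83% of windows. The D-box TTANGTAA was in 1 member and 2.24% of windows, and the receptor element TAGGTCA in 1 member and 2.63% of windows. The cAMP response element TGACGTCA was in 0 members and 1.83% of windows. For each element the count of members equals the count among their 11 windows. The windows of Per1, Per3, Clock, Nr1d2 and Dbp held none of the 5 elements. The windows given for Per1 (chr10:54304126-54304425, plus strand) and Per3 (chr5:166777751-166778050, minus strand) lie inside the genes. Those genes begin at 54299002 and 166778243, and the bases before these gene starts were not searched. The motifs do not share letters where they were found. A match is a stretch of letters, and no factor binding was measured here.

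The deposited values were converted to log2. The tests compared a probe set only with itself across arrays. Levels of different genes were set together for the dim threshold and the cell type marker means. Array medians over all 29214 probe sets, those without a gene symbol included, lay between 7.73 and 7.80. Replicate numbers are called experiments 1 to 3. The means of the 10 members over 12 arrays were all above the 25th percentile of gene means (6.87), so none was dim. Per3 varied most between experiments, with means that spanned 0.298, followed by Clock (0.237) and Nr1d1 (0.218), against a median span of 0.139 over all genes. Ep300, the target of the siRNA, read 11.01 to 11.16 in NS and 10.02 to 10.41 in p300kd cells at 0 h. At 8 h it read 10.72 to 10.86 in NS and 9.64 to 10.10 in p300kd cells. The arrays of the groups did not overlap at either time, and the average log2 change was -0.93 ± 0.0894 (SE; limma with Benjamini-Hochberg adjustment, adjusted p = 0.00212). Leaving out experiment 2 (adjusted p = 0.348) or experiment 3 (0.168) ended the Ep300 call, with changes of -0.88 and -0.90.

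**Figure D1:**
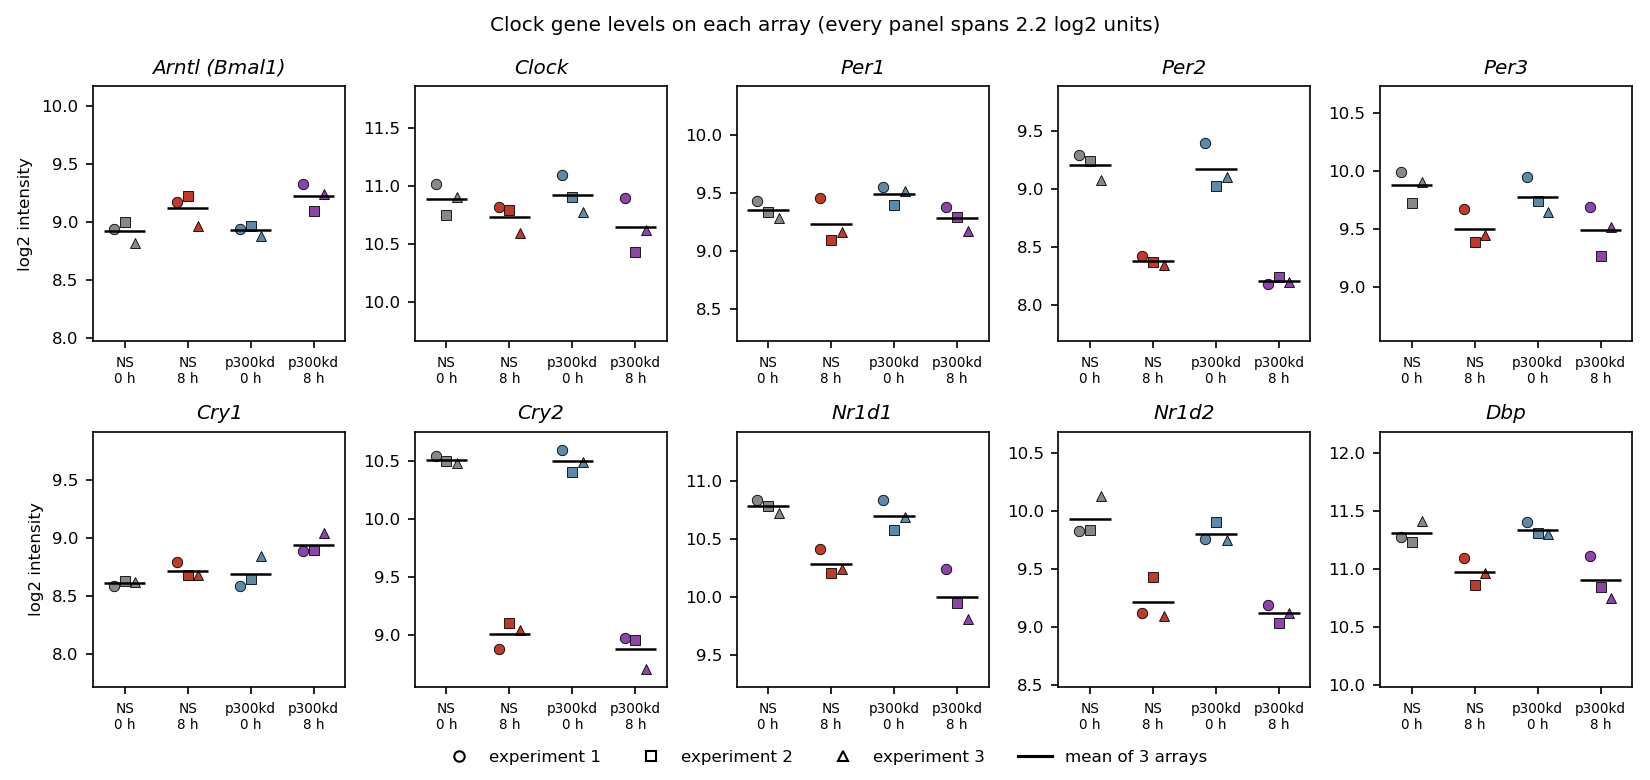
Log2 intensity of the 10 clock genes on each of the 12 arrays, by group (x axis) with marker shape for the experiment and a bar for the mean of 3 arrays; every y axis spans 2.2 log2 units. Cry2, Per2, Nr1d1 and Nr1d2 are lower on every 8 h array than on any 0 h array of the same siRNA, while Arntl and Cry1 have their highest mean in p300kd cells at 8 h.

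After 8 h in Dox, 5 of the 7 repressor genes (Per, Cry and REV-ERB genes) and the output factor Dbp fell in NS cells. Cry2, Per2, Nr1d2, Nr1d1, Per3 and Dbp fell, with log2 changes from -0.33 for Dbp to -1.50 for Cry2. Clock (-0.15), Per1 (-0.12), Cry1 (0.11) and Arntl (0.20) did not pass the test, although Arntl was higher at 8 h in all 3 experiments and passed with median centring (adjusted p = 0.0201) or quantile normalisation (0.0193). This comparison asks how expression changes over 8 h in the drug without the p300 siRNA. Ep300 itself changed by -0.34 in these cells (limma, adjusted p = 0.0641, and 0.00153 with the experiment as a block). By limma on 4 group means, with Benjamini-Hochberg adjustment over all genes and a gene called at an adjusted p under 0.05, 0 of 10 members were called higher and 6 lower. Over all genes tested, 11.1% were called higher and 16.4% lower. The median change of the members was -0.35, against 0.04 over all genes. All 3 arrays at 8 h were below all 3 at 0 h for 6 members (21.2% of all genes) and above them for 1, Cry1 (20.1%). The groups differ in hours in culture as well as in Dox, and the labels give no untreated culture at 8 h and no hour of collection. Dox, elapsed time and the phase of the cells' own rhythm cannot be told apart. In RNA from whole cultures, fewer cells of a type and less RNA per cell cannot be told apart either.

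In p300kd cells the same comparison called 2 members higher, Arntl and Cry1, and 5 lower, Cry2, Per2, Nr1d1, Nr1d2 and Dbp. Of all genes, 13.9% were called higher and 17.5% lower. The members' median change was -0.36, against 0.04 over all genes. The 8 h arrays were all below the 0 h arrays for 6 members and all above them for 2, Arntl and Cry1; over all genes each direction held 21.6%. With the experiment as a block, which takes out the offset that arrays of 1 experiment share, 0 members were higher and 6 lower in NS cells (21.6% and 21.9% of all genes). In p300kd cells that fit called 2 higher and 8 lower (22.9% and 22.8% of all genes). The 3 added there were Per3, Clock and Per1. With the experiment as a random block (an estimated correlation), 9 were called, without Per1 (adjusted p = 0.0531). Of all 14506 genes, that fit called 3107 higher and 3153 lower in p300kd cells. Without experiment 2 or without experiment 3, 3 members were called in NS cells (Cry2, Per2 and Nr1d2) and 4 in p300kd cells (those and Nr1d1), all lower. Fewer genes were called over the whole array too. Without experiment 2, 455 genes were higher and 1327 lower in NS cells, and 725 and 1544 in p300kd cells. Without experiment 3 these counts were 607 and 1330, and 786 and 1573. The Dox comparisons in NS and p300kd cells use different arrays, but arrays of 1 experiment share its offset.

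**Figure D2:**
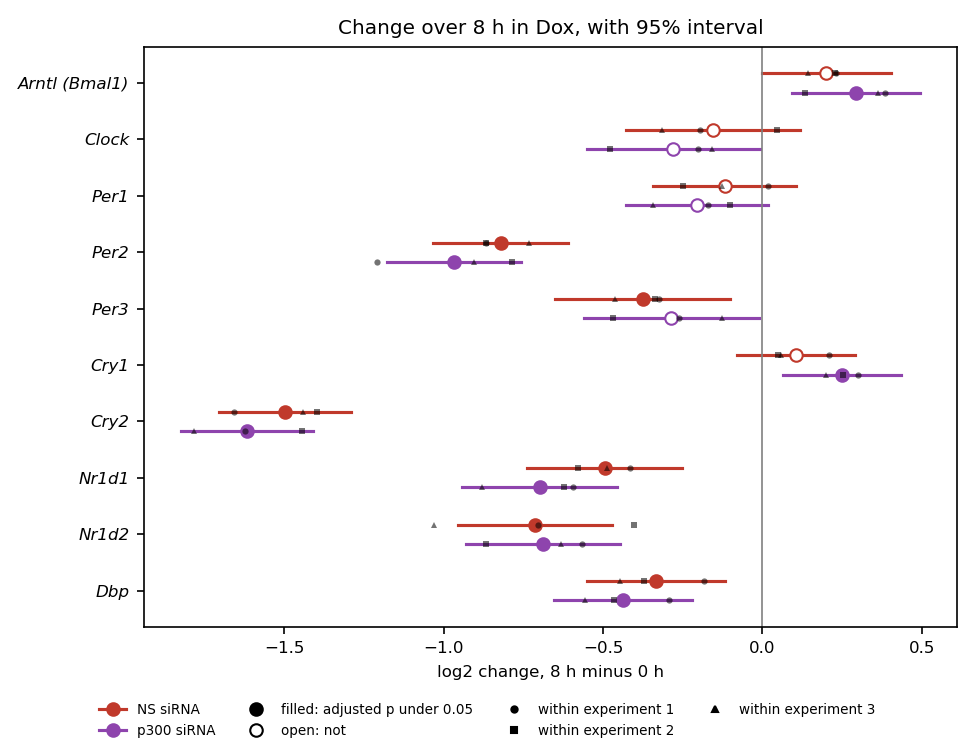
Log2 change from 0 h to 8 h in Dox (x axis) for each clock gene, in NS (red) and p300kd (purple) cells, with the 95% interval of the fit that ignores the experiment; filled circles passed at an adjusted p under 0.05 and small black marks are the change within each experiment. Cry2 lies furthest to the left at -1.50 and -1.62, and the marks of Arntl and Cry1 lie to the right of 0 in all experiments.

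Among the repressors of the main loop, Cry2 changed most. Cryptochrome 2 binds the CLOCK and BMAL1 pair and holds it inactive, and its start region carries the E-prime box shown above. In NS cells Cry2 read 10.54, 10.50 and 10.48 at 0 h in experiments 1 to 3, and 8.88, 9.10 and 9.04 at 8 h. The p300kd arrays read 10.60, 10.41 and 10.49 at 0 h and 8.97, 8.96 and 8.71 at 8 h. All 6 arrays at 8 h lay more than 1 log2 unit below all 6 at 0 h. The change was -1.50 ± 0.0952 (SE) in NS cells, a 2.83-fold fall (adjusted p = 9.13e-07), and -1.62 ± 0.0952 in p300kd cells, a 3.07-fold fall (adjusted p = 3.45e-07). Ordered from the largest fall among 14506 genes, Cry2 was number 36 in NS cells and number 27 in p300kd cells. Its call stood in all 23 alternative analyses of each comparison.

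Cry1, the related cryptochrome with a stronger repressive action, did not fall. It read 8.59, 8.63 and 8.62 in NS cells at 0 h and 8.80, 8.68 and 8.68 at 8 h. Its p300kd arrays read 8.59, 8.65 and 8.85 at 0 h and 8.89, 8.90 and 9.05 at 8 h. Every 8 h array was above every 0 h array of the same siRNA, with gaps of hundredths of a log2 unit. The change was 0.11 ± 0.0854 (SE) in NS cells (adjusted p = 0.394) and 0.25 ± 0.0854 in p300kd cells (adjusted p = 0.0399). The p300kd call was lost in 11 of 23 alternatives. Among these were the fit on the groups compared alone (0.0995), the fits without experiment 1 (0.118), 2 (0.218) or 3 (0.110), and the fits without single arrays of NS at 0 h (0.0508 to 0.0540), p300kd at 0 h (experiment 1, 0.148; experiment 2, 0.115) or p300kd at 8 h (experiment 2, 0.0651; experiment 3, 0.150).

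Of the Period genes, whose proteins carry the cryptochromes into the nucleus, Per2 fell in both cell groups. In NS cells Per2 read 9.29, 9.24 and 9.08 at 0 h and 8.43, 8.38 and 8.35 at 8 h. With the p300 siRNA the readings were 9.39, 9.03 and 9.11 at 0 h and 8.18, 8.25 and 8.20 at 8 h. The 8 h arrays were tightly grouped, with SDs of 0.0408 and 0.0314 (n = 3 each), and below every 0 h array. Per2 changed by -0.82 ± 0.0974 (SE; adjusted p = 5.87e-05) in NS cells, to 56.6% of its intensity at 0 h. In p300kd cells it changed by -0.97 ± 0.0974 (adjusted p = 1.53e-05), to 51.2%. Both calls stood in all 23 alternatives.

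Per3, a Period gene that is less needed for the rhythm itself, differed between experiments by nearly as much as with Dox. In NS cells it read 9.997, 9.73 and 9.91 at 0 h and 9.67, 9.39 and 9.45 at 8 h. The p300kd readings were 9.95, 9.74 and 9.65 at 0 h and 9.69, 9.27 and 9.52 at 8 h. Groups did not overlap in NS cells and overlapped in p300kd cells, and the value fell within all 3 experiments in each. The change was -0.37 ± 0.127 (SE) in NS cells (adjusted p = 0.0434; 0.000696 with the experiment as a block). In p300kd cells it was -0.29 ± 0.127 (adjusted p = 0.106; 0.00463 with the block). The NS call was lost in 10 of 23 alternatives, with median centring (0.107), quantile normalisation (0.181), and without experiment 2 (0.125) or 3 (0.272). It was also lost without the NS 0 h array of experiment 1 (0.145) or 3 (0.107), the NS 8 h array of experiment 2 (0.134) or 3 (0.119), the p300kd 0 h array of experiment 2 (0.0594) or the p300kd 8 h array of experiment 3 (0.0557). Without the p300kd 8 h array of experiment 1 the p300kd change passed (-0.38, adjusted p = 0.0392).

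Per1, a Period gene that cAMP and glucocorticoid signals induce, changed by -0.12 ± 0.103 (SE; adjusted p = 0.433) in NS cells. Its NS arrays read 9.43, 9.34 and 9.28 at 0 h and 9.45, 9.09 and 9.16 at 8 h. Its p300kd arrays read 9.55, 9.39 and 9.51 at 0 h and 9.38, 9.29 and 9.17 at 8 h. The groups overlapped in NS cells, and the p300kd arrays were lower at 8 h than at 0 h by a narrow gap. The p300kd change was -0.21 ± 0.103 (adjusted p = 0.151; 0.0352 with the experiment as a fixed block and 0.0531 as a random one).

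The 2 REV-ERB genes, repressors of Arntl, fell in both cell groups. Nr1d1 read 10.84, 10.79 and 10.73 in NS cells at 0 h and 10.42, 10.21 and 10.24 at 8 h. The p300kd cells gave 10.84, 10.58 and 10.69 at 0 h and 10.25, 9.96 and 9.81 at 8 h. No 8 h array reached a 0 h array of the same siRNA. Nr1d1 changed by -0.49 ± 0.112 (SE; adjusted p = 0.0057) in NS cells and by -0.70 ± 0.112 (adjusted p = 0.000488) in p300kd cells. Leaving out experiment 2 (-0.45, adjusted p = 0.111) or experiment 3 (-0.50, 0.0547) ended the NS call, and the p300kd call stood in all 23 alternatives.

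Nr1d2 read 9.83, 9.84 and 10.13 in NS cells at 0 h and 9.12, 9.43 and 9.10 at 8 h. In p300kd cells it read 9.76, 9.91 and 9.75 at 0 h and 9.19, 9.04 and 9.12 at 8 h. Here too every 8 h array was the lower one. The changes were -0.71 ± 0.112 (SE; adjusted p = 0.00049) in NS and -0.69 ± 0.112 (adjusted p = 0.000515) in p300kd cells, and both stood in all 23 alternatives. Within experiments the NS change ran from -0.40 in experiment 2 to -1.03 in experiment 3.

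Dbp, the output factor, was lower at 8 h by a smaller margin. Its NS arrays read 11.28, 11.23 and 11.41 at 0 h and 11.09, 10.86 and 10.97 at 8 h. Its p300kd arrays read 11.40, 11.31 and 11.30 at 0 h and 11.11, 10.84 and 10.74 at 8 h. Groups did not overlap for either siRNA. The change was -0.33 ± 0.0995 (SE; adjusted p = 0.0244) in NS and -0.44 ± 0.0995 (adjusted p = 0.00485) in p300kd cells. The NS call was lost in 7 of 23 alternatives: with median centring (0.0894), without experiment 2 (0.183) or 3 (0.191), without the NS 0 h array of experiment 1 (0.0501) or 3 (0.0951), and without the NS 8 h array of experiment 2 (0.0909) or 3 (0.0640). Leaving out experiment 2 (0.0811) or 3 (0.0741) ended the p300kd call.

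Of the activators, Arntl was higher at 8 h and passed in p300kd cells. Arntl, whose start region carries the receptor element shown above, read 8.94, 9.00 and 8.82 in NS cells at 0 h and 9.17, 9.22 and 8.96 at 8 h. In p300kd cells it read 8.94, 8.96 and 8.88 at 0 h and 9.32, 9.09 and 9.24 at 8 h. It was higher at 8 h within each of the 3 experiments for both siRNAs, although the NS groups overlapped. The change was 0.20 ± 0.093 (SE; adjusted p = 0.131) in NS cells and 0.29 ± 0.093 (adjusted p = 0.0292) in p300kd cells. With median centring or quantile normalisation the NS change passed (0.30, adjusted p = 0.0201; 0.32, 0.0193). The p300kd call was lost in 8 alternatives, all of which left out arrays: experiment 1 (0.144), 2 (0.0658) or 3 (0.171), the p300kd 0 h array of experiment 1 (0.0608), 2 (0.0570) or 3 (0.0863), or the p300kd 8 h array of experiment 1 (0.0889) or 3 (0.0811).

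Clock, the partner of Arntl, read 11.02, 10.75 and 10.91 in NS cells at 0 h and 10.82, 10.80 and 10.60 at 8 h. In p300kd cells it read 11.10, 10.91 and 10.77 at 0 h and 10.89, 10.43 and 10.62 at 8 h. Both pairs of groups overlapped. The change was -0.15 ± 0.125 (SE; adjusted p = 0.398) in NS cells and -0.28 ± 0.125 (adjusted p = 0.110; 0.0091 with the experiment as a block) in p300kd cells. Without the p300kd 8 h array of experiment 1 the p300kd change was called.

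The p300 siRNA called no clock gene at either time or on average, while Ep300 itself was lowered to 52.4% of its NS intensity. This comparison asks whether the clock genes change when Ep300 RNA is lowered in part, without and with the drug. These arrays do not measure p300 protein. At 0 h, limma called 0 of 10 members (0.0207% of all genes, 3 genes), with changes from -0.12 for Nr1d2 to 0.14 for Per1 and adjusted p from 0.929 to 0.997; 0 members and 1008 genes had an unadjusted p under 0.05. At 8 h, it called 0 of 10 (0.0483% of all genes, 7 genes), with 2 members and 1155 genes at an unadjusted p under 0.05. Averaged over both times it called 0 of 10 (1.25% of all genes), with 2 members and 1845 genes at an unadjusted p under 0.05. With the experiment as a block, 1 member, Nr1d1, was called lower at 8 h (3.14% of all genes called) and on average (9.51%). With the experiment as a random block, 0 members were called at either time or on average, and Nr1d1 had an adjusted p of 0.128 at 8 h and 0.0896 on average with that estimated correlation.

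Those 2 members were Nr1d1 and Cry1 at 8 h and on average. Nr1d1 was lower with the p300 siRNA at 8 h by -0.17, -0.26 and -0.43 in experiments 1 to 3. Its mean fell from 10.29 ± 0.113 (SD, n = 3) in NS to 10.01 ± 0.222 in p300kd cells, but the arrays overlapped. The change was -0.29 with a 95% interval of -0.53 to -0.0422 (adjusted p = 0.513; 0.0445 with the experiment as a block). On average over both times it was -0.18 ± 0.0795 (SE; adjusted p = 0.357; 0.0324 with the block). Without the block this change is not distinguishable from the spread between arrays once all genes are counted.

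Cry1 was higher with the p300 siRNA at 8 h, and here the 3 arrays of each group did not overlap. The change was 0.22 with a 95% interval of 0.0385 to 0.409, which was 0.09, 0.22 and 0.36 within experiments 1 to 3 (adjusted p = 0.496). On average over both times it was 0.15 ± 0.0604 (SE; adjusted p = 0.306). Per2 was also lower on every p300kd array at 8 h than on any NS array, with a change of -0.17 and a 95% interval of -0.384 to 0.0379 (adjusted p = 0.698). Neither gene passed with the block (adjusted p = 0.142 and 0.299).

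The other members lay closer to 0 in the average over both times. The changes were -0.11 for Nr1d2, -0.10 for Per2, 0.09 for Per1, -0.07 for Cry2, 0.05 for Arntl, -0.05 for Per3, -0.03 for Clock and -0.02 for Dbp. Their adjusted p ran up to 0.939 (Clock). The signs of Per3, Arntl, Clock and Dbp each turned when 1 experiment or 1 array was left out. These misses do not show that the siRNA left the genes alone: the intervals of all 10 averages together reached from -0.356 to 0.282.

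**Figure D3:**
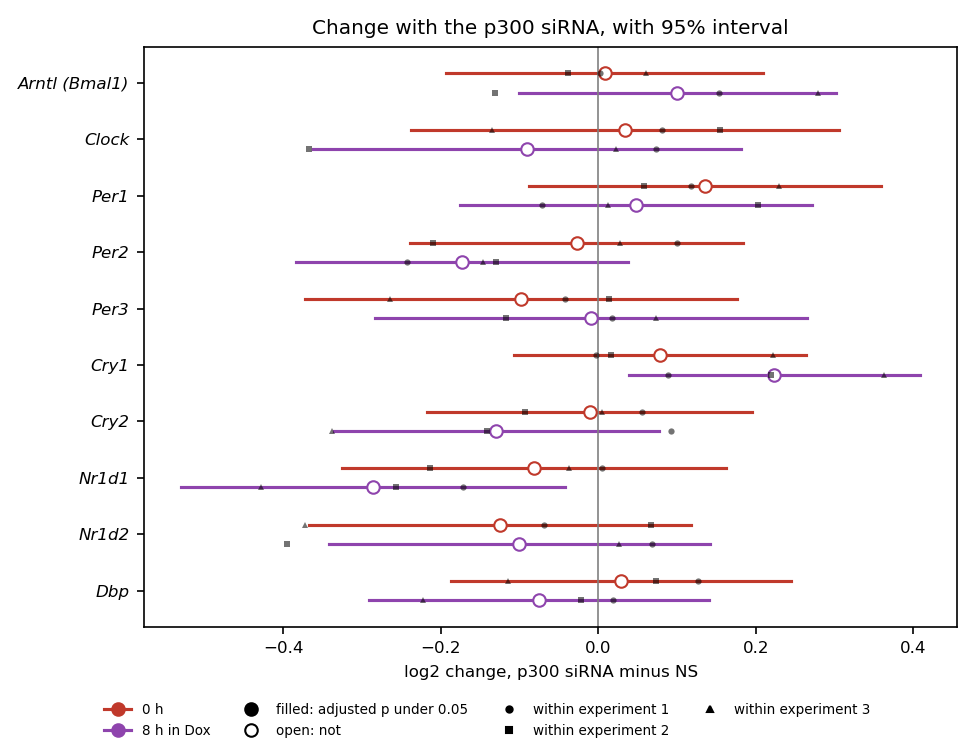
Log2 change with the p300 siRNA, p300kd minus NS (x axis), for each clock gene at 0 h (red) and at 8 h in Dox (purple), with the 95% interval before adjustment and small black marks for the change within each experiment; open circles did not pass at an adjusted p under 0.05, and all 20 are open. The 8 h intervals of Nr1d1 (-0.53 to -0.0422) and Cry1 (0.0385 to 0.409) do not cross 0 before adjustment.

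The difference between the Dox responses, p300kd minus NS, was tested as the interaction. limma called 0 of 10 members and 0 of 14506 genes (0%), also with the experiment as a block, and 0 members and 228 genes had an unadjusted p under 0.05. The largest differences were -0.20 for Nr1d1 (95% interval -0.549 to 0.141) and 0.14 for Cry1 (-0.117 to 0.407), and every member had an adjusted p of 0.9998. In the fit that ignores the experiment, Arntl and Cry1 passed in p300kd and not in NS cells. Per3 passed there in NS and not in p300kd cells. With the experiment as a block, Per3 passed in both. Clock and Per1 then joined Arntl and Cry1 in passing only in p300kd cells. None of these genes was shown to differ between the siRNAs. The intervals of the 10 members together reached from -0.549 to 0.478. Differences inside them are not excluded with 3 arrays a group.

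Ordered by group mean, Per2, Per3, Cry2, Nr1d1 and Nr1d2 shared 1 order: highest in NS at 0 h, then p300kd at 0 h, NS at 8 h and p300kd at 8 h. Arntl and Cry1 had the reverse of it. Clock and Dbp differed from the first order by having p300kd at 0 h on top, and Per1 went from p300kd at 0 h through NS at 0 h and p300kd at 8 h down to NS at 8 h. In the fit that ignores the experiment, neighbours of the same time in these orders did not differ beyond the test for any of the 10 genes. The steps that passed in that fit lay between 0 h and 8 h within an siRNA, as given above. By limma with the experiment as a block, the step between the siRNAs at 8 h also passed for Nr1d1 (adjusted p = 0.0445).

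The clock's surrounding genes were read from 5 lists: auxiliary transcription factors, kinases and ubiquitin enzymes, co-regulators, output genes and input signalling. In 4 of these, more members were called lower than higher after Dox. That balance also held over all genes, with 16.4% lower and 11.1% higher in NS cells (2375 and 1617 genes) and 17.5% and 13.9% in p300kd cells. Median centring turned it to 1832 lower and 3800 higher genes in NS cells and 1991 and 4344 in p300kd cells, so the counts below are a description and show nothing particular to a list. The p300 siRNA and the interaction called 0 members of the 5 lists in the fit that ignores the experiment. With the experiment as a block, the siRNA called Bhlhe40 lower on average (-0.19, adjusted p = 0.0256), Klf10 lower at 0 h (-0.32, 0.0451) and on average (-0.25, 0.0114), and Coq10b higher on average (0.22, 0.0182). Of all 14506 genes, that fit called 289 lower and 101 higher at 0 h. On average it called 912 lower and 468 higher (9.51% together), so these calls too show nothing particular to a list.

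**Figure D4:**
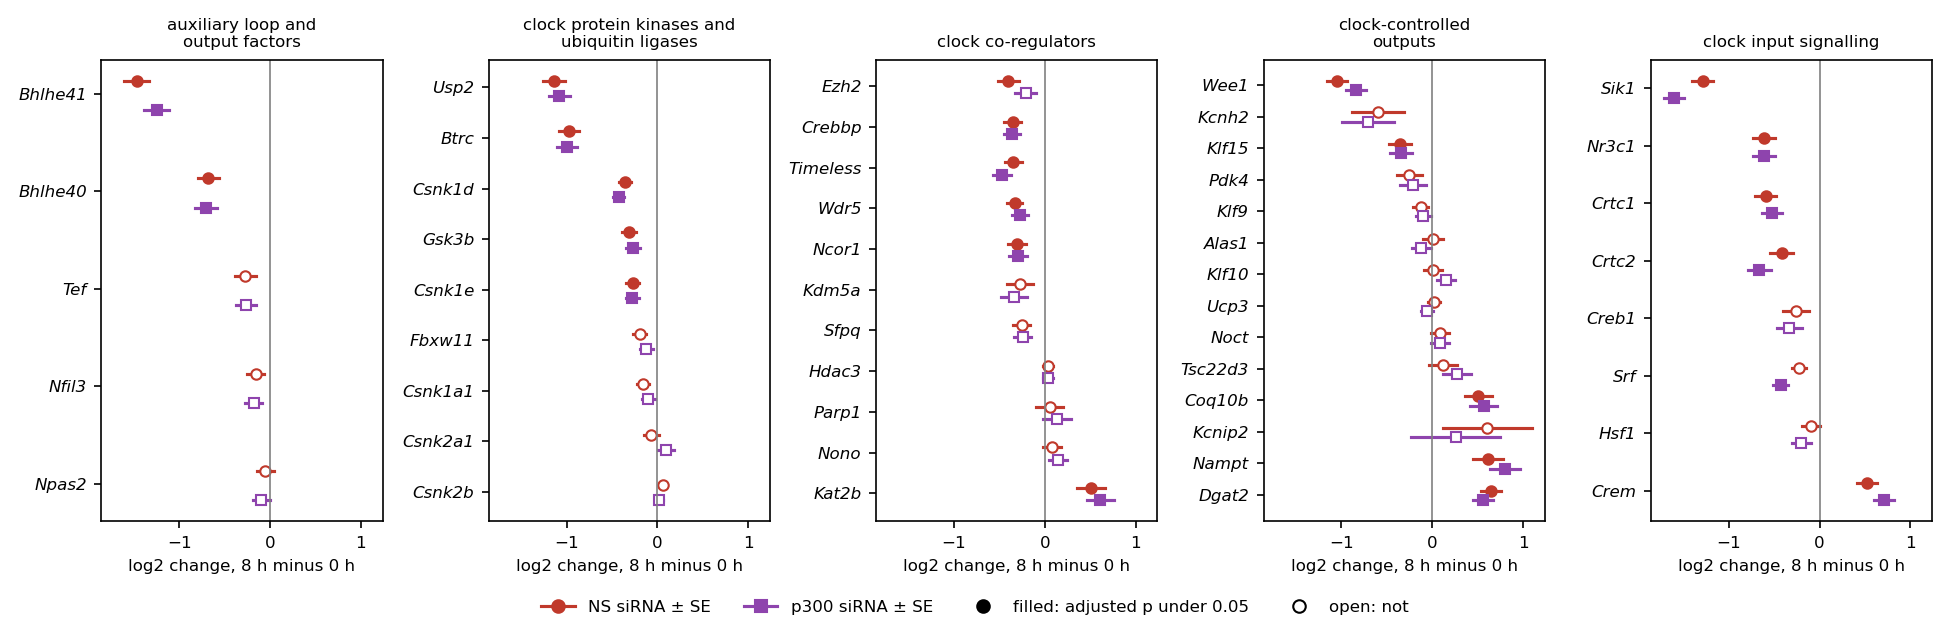
Log2 change from 0 h to 8 h in Dox (x axis) for the measured genes of the 5 clock lists, in NS (red circles) and p300kd (purple squares) cells, with the SE; filled symbols passed at an adjusted p under 0.05. Bhlhe41, Usp2, Btrc, Wee1 and Sik1 lie furthest to the left, and Kat2b, Coq10b, Nampt, Dgat2 and Crem are filled to the right of 0.

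Of the auxiliary factors, 5 of 10 listed were measured, and 2 fell and 0 rose in both NS and p300kd cells (median -0.27 in each). Bhlhe41 and Bhlhe40 encode DEC2 and DEC1, which compete with CLOCK and BMAL1 for E-boxes. Bhlhe41 changed by -1.47 ± 0.139 (SE; adjusted p = 1.2e-05) in NS and -1.25 ± 0.139 (3.11e-05) in p300kd cells, and Bhlhe40 by -0.68 ± 0.119 (0.00107) and -0.71 ± 0.119 (0.000673). These 4 calls stood in all 23 alternatives. Tef, an activator at D-boxes like Dbp, changed by -0.27 in both (adjusted p = 0.0974 and 0.0951; 0.0209 and 0.0217 with the experiment as a block). Nfil3, the repressor at the same sites, changed by -0.16 (0.243) and -0.18 (0.165), and Npas2, a relative of Clock, by -0.05 (0.723) and -0.10 (0.466). The sign of Npas2 turned with median centring and with quantile normalisation.

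Of the enzymes that set the stability of clock proteins, 9 of 12 listed were measured, and 5 fell and 0 rose in both comparisons (median -0.27 in each). Usp2, a deubiquitinase that acts on clock proteins, changed by -1.14 ± 0.120 (SE; adjusted p = 2.56e-05) in NS and -1.08 ± 0.120 (3.09e-05) in p300kd cells. Btrc, which encodes the F-box protein that marks phosphorylated PER for degradation, changed by -0.97 ± 0.113 (5.02e-05) and -0.99 ± 0.113 (3.65e-05). Both genes stood in all 23 alternatives. The PER kinases Csnk1d and Csnk1e changed by -0.36 (0.0011) and -0.27 (0.0145) in NS cells and by -0.43 (0.000249) and -0.27 (0.0115) in p300kd cells. Gsk3b, which phosphorylates several clock proteins, changed by -0.31 (0.00702) and -0.27 (0.0147). Fbxw11, a relative of Btrc, changed by -0.20 (0.0651) and -0.12 (0.233). In NS cells the calls of Csnk1d (0.0554), Csnk1e (0.124) and Gsk3b (0.0795) were lost without experiment 2. Those of Csnk1e (0.153) and Gsk3b (0.112) were also lost without experiment 3, and that of Csnk1e without the NS 0 h array of experiment 3 or the NS 8 h array of experiment 2. In p300kd cells Csnk1e was lost without any 1 experiment (up to 0.142). Gsk3b was lost there without experiment 2 (0.190) or its p300kd 0 h array (0.0622). Csnk1e in both comparisons and Gsk3b in p300kd cells also lost their calls with median centring.

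Of the co-regulators, 11 of 13 listed were measured. In NS cells 1 rose and 5 fell (median -0.27), and in p300kd cells 1 rose and 4 fell (median -0.24). Kat2b, an acetyltransferase, rose by 0.51 (adjusted p = 0.0234) and 0.61 (0.00761). Timeless, which also protects replication forks, changed by -0.35 (0.0178) and -0.47 (0.00251). Crebbp, the closest relative of p300, changed by -0.36 (0.0104) and -0.36 (0.00797). Wdr5, a subunit of histone methyltransferase complexes, changed by -0.33 (0.0117) and -0.27 (0.0265), and Ncor1, a corepressor that works with the REV-ERB proteins, by -0.31 (0.036) and -0.29 (0.0407). Ezh2, the Polycomb methyltransferase, changed by -0.40 (0.0197) in NS and -0.21 (0.184) in p300kd cells, and Sfpq by -0.25 (0.0616) and -0.24 (0.0649). None of these calls stood in every alternative. In NS cells all 6 were lost without experiment 2 and without experiment 3 (adjusted p up to 0.262). In p300kd cells all 5 were lost without experiment 2, and 4 of them, without Timeless, also without experiment 3. Rescaling (median centring or quantile normalisation) ended the calls of Timeless, Ezh2 and Ncor1 in NS cells and of Wdr5 and Ncor1 in p300kd cells. Leaving out single arrays ended the calls of Kat2b, Timeless, Wdr5, Ezh2 and Ncor1 in NS cells and of Wdr5 and Ncor1 in p300kd cells.

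Of the output genes, 14 of 16 listed were measured, and 3 rose and 2 fell in both comparisons (median 0.01 in each). Wee1, a kinase that restrains entry into mitosis, changed by -1.05 ± 0.111 (SE; adjusted p = 2.66e-05) in NS and -0.84 ± 0.111 (0.000126) in p300kd cells. Klf15, a transcription factor of cardiac metabolism, changed by -0.36 (0.041) and -0.35 (0.0413). Dgat2, which makes triglycerides, rose by 0.65 (0.000801) and 0.56 (0.00176), Nampt, which makes NAD, by 0.61 (0.015) and 0.80 (0.00263), and Coq10b by 0.50 (0.023) and 0.57 (0.0109). Kcnh2, a potassium channel of the heart, changed by -0.60 (0.147) and -0.71 (0.0808), and with the experiment as a block by the same amount with an adjusted p of 0.00117 and 0.000256. Wee1 in both comparisons, Dgat2 in NS and Nampt in p300kd cells kept their calls in all 23 alternatives. Klf15 lost its calls in 12 and 9 of 23, with median centring and without each experiment among them. In NS cells its change was -0.19, -0.10 and -0.77 within experiments 1 to 3. It was -0.15 without experiment 3 (adjusted p = 0.440) and -0.20 without the NS 0 h array of that experiment (0.156). Dgat2 in p300kd cells was lost without experiment 2 (0.0658), and Coq10b without experiment 3 (0.190 in NS and 0.127 in p300kd cells). Nampt in NS cells was lost without experiment 2 (0.140) or 3 (0.0520). Single arrays ended the NS calls of Nampt (NS 0 h of experiment 1, NS 8 h of experiment 2) and Coq10b (NS 0 h of experiment 1 or 3, NS 8 h of experiment 2 or 3).

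Of the genes of input signalling, through which cAMP, glucocorticoid and serum signals reset the clock, 8 of 9 listed were measured. In NS cells 1 rose and 4 fell (median -0.34), and in p300kd cells 1 rose and 5 fell (median -0.48). Sik1, a kinase that limits the light-driven resetting of the clock, changed by -1.29 ± 0.114 (SE; adjusted p = 7.42e-06) in NS and -1.60 ± 0.114 (1.36e-06) in p300kd cells. Crem, which encodes activators and repressors at cAMP response elements, rose by 0.52 (0.00289) and 0.71 (0.000302). The CREB coactivator genes Crtc1 and Crtc2 changed by -0.59 (0.00174) and -0.42 (0.0281) in NS cells and by -0.53 (0.00317) and -0.66 (0.00173) in p300kd cells. Nr3c1, the glucocorticoid receptor, changed by -0.61 (0.00212) and -0.61 (0.00185). Srf, the serum response factor, changed by -0.22 (0.0502) and -0.43 (0.00121), and Creb1 by -0.26 (0.192) and -0.33 (0.0928). Sik1 in both comparisons and Crem, Crtc2, Nr3c1 and Srf in p300kd cells stood in all 23 alternatives. In NS cells Crem was lost without experiment 2 (0.0651), and Nr3c1 (0.0716) and Crtc1 (0.0606) without experiment 3, as was Crtc1 in p300kd cells (0.0643). Crtc2 in NS cells was lost in 8 alternatives, the rescalings and the fits without experiment 2 (0.199) or 3 (0.153) or 1 of 4 NS arrays (experiments 1 and 2 at 0 h, experiments 2 and 3 at 8 h). Srf in NS cells passed in 8.

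Cell type markers were read on the same arrays. Over all genes, Dox called 11.1% higher and 16.4% lower in NS cells, and 13.9% and 17.5% in p300kd cells. The siRNA called 1.25% of all genes on average over both times. All 10 of 10 cardiac myocyte markers were measured, and their mean log2 intensity was 13.04 to 13.36 per array. The fit that ignores the experiment called 0 of them by Dox or the siRNA. With the experiment as a block, Dox called 1 higher in NS cells, and 3 higher and 1 lower in p300kd cells. That fit called 21.6% of all genes higher and 21.9% lower in NS cells, and 22.9% and 22.8% in p300kd cells. The Dox counts that follow are from the fit that ignores the experiment. For the 10 fibroblast markers the array means were 11.05 to 11.37, and Dox called 1 higher (Thy1) and 1 lower (Pdgfra) for both siRNAs. For endothelial markers (7 of 8 measured) they were 7.68 to 7.72 in NS and 7.57 to 7.59 in p300kd cells at 0 h, and 7.39 to 7.53 and 7.31 to 7.37 at 8 h. Dox called 2 of these lower, Kdr and Cdh5, for both siRNAs. Of 7 smooth muscle and pericyte markers, Dox called 2 lower (Pdgfrb and Cspg4), with array means of 11.25 to 11.90 over all groups. Of 7 macrophage and leukocyte markers, Dox called 1 lower in NS (Csf1r) and 2 in p300kd cells (Csf1r and Ptprc). The mean of that list was 8.17 to 8.45 on NS and 7.84 to 8.09 on p300kd arrays, and the siRNA called Csf1r (-0.46) and Ptprc (-0.40) lower on average, besides the pericyte marker Cspg4 (-0.37). With the experiment as a block, the average siRNA change was called lower for 5 of 10 fibroblast and 5 of 7 macrophage and leukocyte markers. It was also called lower for 1 of 7 endothelial and 2 of 7 smooth muscle and pericyte markers, and higher for 1 of the last. Of all 14506 genes, that fit called 912 lower and 468 higher (9.51% together). The lowest group mean of a single marker was 6.16, in the endothelial list. The part of these cells in the clock gene changes was not tested.

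For 4 members the 3 genes with the most similar profile over the 12 arrays were taken from the other 14505 genes, by the root mean square difference of log2 values centred on each gene's mean. For Arntl these were Lpin3 (0.0507), Hsp90aa1 (0.0579) and Hipk1 (0.0665), against a median of 0.201 over all genes. For Nr1d1 they were Rhog (0.0678), Ripor1 (0.0710) and Zfp414 (0.0790), against a median of 0.376. For Per2 they were Jund (0.0829), Afap1 (0.0916) and Bicra (0.0931), against 0.495. For Dbp they were Crebbp (0.0630), Dyrk1b (0.0648) and Ldb1 (0.0662), against 0.271. None of the other 9 members is among the 3 nearest genes of Arntl, Nr1d1, Per2 or Dbp. The likeness is a description over 12 arrays that share groups and experiments. The medians are no test of it, since the 3 smallest of 14505 differences lie below them by selection. A gene without any change would differ by 0.154 from Arntl, 0.337 from Nr1d1, 0.461 from Per2 and 0.220 from Dbp.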

How the data were processed

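Total RNA of 12 cultures was measured on 12 arrays, 3 per group; group and replicate number were read from title and treatment labels. The authors deposited 1 linear intensity per probe set and array, made per the submitters' processing notes with Affymetrix Expression Console 1.1 and RMA (background correction, normalisation between arrays, probe summary); how they became linear is not given in the sources used here. The platform annotation gave 1 symbol to 15310 of 29214 probe sets, several to 323 and none to 13581; only the first were used, and the probe set with the highest mean for a gene with more than 1 (527 genes). Log2 was taken and limma 3.58.1 (R 4.3.3, lmFit, eBayes with trend, 4 group means, two-sided, Benjamini-Hochberg over 14506 genes) gave all 6 comparisons. The fit was tried on simulated data in which arrays of 1 experiment shared no offset. That trial cannot tell how the fit does on arrays that share one, as these do. No filter on level was applied. Alternatives were a fixed or random block for the experiment, only the groups compared, dim genes left out, other scalings, probe sets averaged, no trend, and each experiment or array left out. The numbers pair the samples, since the design text states 3 experiments: array deviations from group means correlated across genes at a median of 0.504 (0.172 to 0.689) over 18 pairs of 1 number and -0.271 over 36 others. Where nothing else is said, fits ignore the experiment. Members, lists and the rule for named genes were chosen with earlier results of these data known. The rule took all members and, per clock list, up to 6 genes that passed with Dox or in the average siRNA change. Of the genes that did not pass, it took 3 from the auxiliary factors and 1 from each other clock list. The genes described by name therefore lean toward those that passed, while the counts and medians per list cover all measured genes. Array number limits the precision. Plots were made in matplotlib 3.10.9 under Python 3.11.15.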

Additional observations from a re-analysis of the deposited data

How the results depend on the processing

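The p300 siRNA and interaction counts of called members were 0 in every alternative except the fit with a replicate block, which uses the pairing of arrays by experiment and called 1 member (Nr1d1) at 8 h and 1 on average; the random block called 0. With 1 experiment or array left out, 3 to 6 members were called with Dox in NS cells and 4 to 8 in p300kd cells. Both counts were lowest without experiment 2 or 3. These fits have fewer arrays and also called fewer genes over the whole array, as given above. The count for the siRNA stayed at 0 to 0 under the same omissions. The replicate block changed no other call of a member than those given in the report.

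Median centring used array medians over the 14506 genes, not those over all probe sets. With Dox, median centring raised the all-gene median log2 change from 0.04 to 0.14 in NS cells and likewise in p300kd cells. The calls became 3800 higher and 1832 lower in NS cells, against 1617 and 2375, and 4344 and 1991 in p300kd cells, against 2017 and 2543; quantile normalisation gave 1905 and 2059, and 2281 and 2281. Every called clock gene kept its sign under both. Npas2 turned to 0.0504 and 0.0679 in NS cells and to 0.00791 and 0.0192 in p300kd cells with median centring and quantile normalisation. When arrays were left out, Npas2 with Dox in NS cells ran from -0.111 to 0.0159, and the average siRNA change from -0.103 to 0.00212 for Per3, -0.00356 to 0.124 for Arntl, -0.0902 to 0.0262 for Clock and -0.0766 to 0.0493 for Dbp. The cause was not tested. Over all results and alternatives, 2015 values kept direction and side of the threshold, 163 lost a call, 47 gained one and 16 changed sign. With 3 arrays a group, differences within the intervals given are not excluded.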
